A study of Mus musculus with 8 samples.

Results

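The 6 genes described here, Nppa, Nppb, Myh6, Myh7, Acta1 and Ankrd1, are transcripts by which the stress state of heart muscle is commonly read. They were taken from the deposited gene table by symbol, which gave 6 rows of 17190. All 8 hearts were male, from mice on chow: 4 wild-type hearts (numbered 2, 4, 5 and 6) and 4 Gpihbp1-/- hearts (numbered 1, 2, 3 and 4). Gpihbp1 encodes the capillary protein that holds lipoprotein lipase, and the series asked what its loss does to the heart. Age, strain, litter, chamber and collection day were not given in the sources used here, so each p-value reflects only how these 8 hearts scattered, which may include technical differences.

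Nppa and Nppb encode the atrial and B-type natriuretic peptides, hormones that cardiomyocytes secrete when stretched and that promote salt excretion and vessel relaxation. In the adult mouse ventricle Nppa is low, Myh6 (alpha-myosin heavy chain, the fast adult motor) far exceeds Myh7 (beta-myosin heavy chain, the slow fetal motor), and cardiac actin Actc1 far exceeds skeletal actin Acta1. Under overload, ventricular muscle typically raises Nppa, Nppb, Myh7, Acta1 and the titin-associated repeat protein Ankrd1 and lowers Myh6, a pattern called the fetal gene programme.

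The DNA just upstream of these genes is known for binding sites of the TEAD factors (the M-CAT element, with the letters CATTCC), the GATA factors (AGATAA, allowing T as its first base and G as its last) and serum response factor (the CArG box, searched by name). Stretches holding such letters are shown because several members were high or low in the same hearts, as described further on. Sequences are RefSeq's for build GRCm38.p6, taken by gene symbol, with the same gene identifier as the deposited counts for 6 of 6 members. They are written 5′ to 3′ on the gene's own strand. Capitals mark matches on either strand to the M-CAT element, the GATA element, the TATA box (with the letters TATAAA) or the CArG box.
Nppa, chr4:148000582-148000721, plus strand: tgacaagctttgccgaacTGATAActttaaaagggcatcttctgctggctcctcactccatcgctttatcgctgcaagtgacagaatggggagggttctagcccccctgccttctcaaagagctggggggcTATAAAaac
Nppb, chr4:147985793-147985822, plus strand: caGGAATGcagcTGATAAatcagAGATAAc
Ankrd1, chr19:36119947-36119976, minus strand: actaagtctGGAATGaaaattcacctgcct
Ankrd1, chr19:36119873-36119902, minus strand: aggctggaagaTTATCTcacccagccctag
Acta1, chr8:123894776-123894875, minus strand: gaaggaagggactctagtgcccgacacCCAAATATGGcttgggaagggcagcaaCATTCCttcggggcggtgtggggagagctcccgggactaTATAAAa
Myh6, chr14:54966748-54966847, minus strand: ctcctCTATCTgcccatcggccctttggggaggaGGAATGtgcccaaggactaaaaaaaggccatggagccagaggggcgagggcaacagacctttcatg

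The Nppb and Ankrd1 stretches are short because GENCODE vM21 annotates exons over them. Which gene or transcript those exons belong to was not examined. The Nppa, Acta1 and Myh6 stretches touch no exon there. Over the 250 bases upstream of each start, M-CAT letters were present for 5 of 6 members (Nppb, Myh6, Myh7, Acta1 and Ankrd1) and in 12.6% of all 32851 promoter windows. GATA letters were present for 4 members (Nppa, Nppb, Myh6 and Ankrd1) and in 26.5% of windows. TATAAA was present for 3 members and in 12.4% of windows, and the CArG box for Acta1 alone and in 1.47% of windows. For Myh7, which has 2 annotated starts, the M-CAT match lay upstream of 1 of them. E boxes (CANNTG), present for all 6 members and in 66.2% of windows, overlapped a GATA match in Nppb and are not capitalised. These matches describe letters and say nothing of binding.

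Library totals ran from 9065553 to 13492957 counts. The deleted gene matched the labels: Gpihbp1 had 833 to 1951 reads in the wild-type hearts and 0 or 1 in the knockout hearts. Values below are CPM, a gene's reads relative to its TMM-scaled library, or TPM, which also divide by gene length, where 2 genes are set side by side. With edgeR's quasi-likelihood test and a threshold of 0.05 on the adjusted p, 4 of 12826 tested genes (0.0312%) differed between genotypes. Several hearts stood apart whatever their genotype. Summed fibroblast and macrophage markers were high in wild-type 2 and knockout 2, and atrial and red cell markers were high in wild-type 6. Wild-type 6 also had the lowest TMM factor, 0.678 against 0.964 to 1.16 elsewhere, so its rank depends on the scale.

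All 6 members passed the count filter, and 0 of 6 were called different between the genotypes in edgeR, where 0.0312% of tested genes were called, 0.0234% higher and 0.0078% lower in the knockout. DESeq2 also called 0 of 6. At an unadjusted p under 0.05 the number was also 0 of 6 in both, against 0.904% of all tested genes in edgeR. The adjusted p was 0.99998 for each member in edgeR, which does not show that the levels were alike. Log2 fold changes, always knockout over wild-type, were positive for 3 members and negative for 3, and 47.1% of all tested genes had a positive one. For no member were the 4 knockout hearts all above or all below the 4 wild-type hearts, as happened for 0.632% of tested genes. The members were nevertheless far from constant. Their levels varied between hearts of the same genotype by 2.13-fold (Myh7 in the knockout) to 28.0-fold (Nppa in the knockout).

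**Figure D1:**
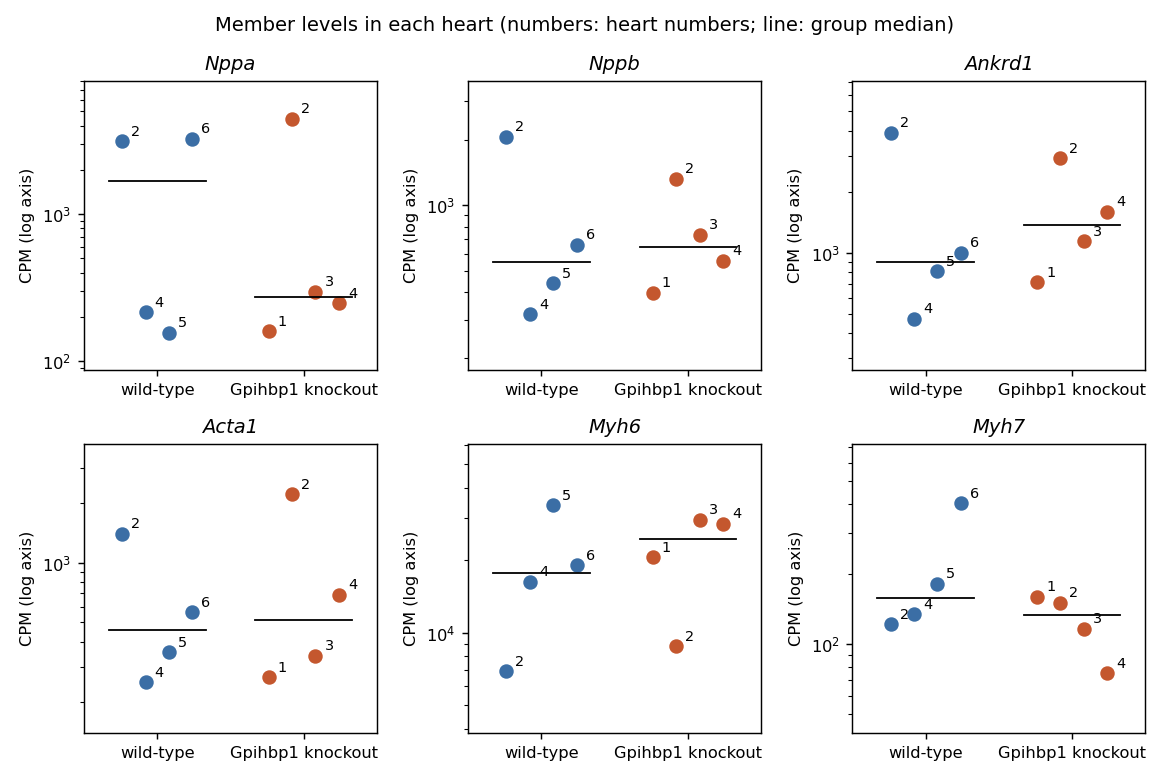
Level of each member in each heart, in TMM-scaled CPM on log axes whose ranges differ between panels; each point is 1 heart, labelled with its number, blue for wild-type and orange for knockout, and the line is the group median. The genotypes overlap in every panel, and hearts numbered 2 lie at the top of Nppb, Ankrd1 and Acta1 and at the bottom of Myh6 in both groups.

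Nppa was the most variable member. Its level was 3132, 215, 157 and 3262 CPM in wild-type 2, 4, 5 and 6. In knockout 1, 2, 3 and 4 it was 160, 4467, 298 and 248 CPM. Thus 2 wild-type hearts and 1 knockout heart were high, the other 5 hearts lay between 157 and 298 CPM, and the groups overlapped. In knockout 2 Nppa was the 4th most abundant transcript by TPM, at 1.08% of the summed TPM, whereas in wild-type 5 it ranked 376th, at 0.0375%. The group means were 1692 ± 1740 CPM in the wild type and 1293 ± 2117 CPM in the knockout (SD, n = 4 each). The log2 fold change was -0.39 (standard error 1.29), and its 95% interval ran from -3.30 to 2.53 (edgeR adjusted p = 0.99998). The pooled standard deviation of Nppa within genotypes was 2.29 on the log2 CPM scale, and 99.7% of tested genes had a smaller one (median of all 12826 genes, 0.46).

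The size and sign of the Nppa difference rested on single hearts. Leaving out knockout 2 gave a log2 fold change of -2.84 (unadjusted p = 0.0278; edgeR adjusted p = 0.999), since the 3 knockout hearts left were all low while 2 wild-type hearts were high. Without wild-type 2 it was 0.10, and without wild-type 6 it was 0.15. With both hearts numbered 2 and wild-type 6 left out, it was 0.34 (edgeR adjusted p = 0.99986).

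High Nppa came with different marker genes in different hearts. In wild-type 6, 7 of 12 atrial markers had their highest value of the 8 hearts, a placing whose share over all tested genes was not counted. Tbx5, Nr2f2, Kcna5, Nr2f1 and Adm did not, and Nr2f1 and Adm were lowest there, at 0.703 and 5.62 CPM. The atrial list summed to 64.4 to 2124 CPM in the wild type, the highest being wild-type 6, and to 69.2 to 146 CPM in the knockout. The atrial light chain Myl4 was at 974 CPM in wild-type 6 and at 1.83 to 2.45 CPM elsewhere. The defining atrial genes Myl7 and Sln were at 427 and 356 CPM in wild-type 6 and at most 0.490 and 0.196 CPM elsewhere. The ventricular list, led by Myl2, was also highest in wild-type 6, at 49940 CPM against 6750 to 21360 CPM elsewhere. Most of that sum was Myl2 and Myl3, at 31090 and 17860 CPM, and 3 of the 7 ventricular genes measured had their highest value there. Irx4, Hey2, Gja1 and Lmod2 did not, and Hey2 was at its lowest of the 8 hearts, 2.25 CPM. The alpha globin gene Hba-a1 was at 4364 CPM in wild-type 6 against 104 to 487 CPM elsewhere. Bmp10, an atrial growth factor counted among the 7 atrial markers above, had at most 1 read, or 0.141 CPM, in any heart. In wild-type 2 and knockout 2, by contrast, the atrial list was the lowest of each group and Myl7 and Sln were at 0, as both also were in knockout 1. Dkk3 of the atrial list went the other way. It was at 15.1 and 9.19 CPM in wild-type 2 and knockout 2, against 2.57 to 3.72 CPM in the other hearts except wild-type 6. The part of these markers in the Nppa level of wild-type 6 was not tested.

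Nppb was less variable, and wild-type 6 was not high in it to the same degree. It was 2056, 317, 440 and 662 CPM in wild-type 2, 4, 5 and 6. It was 398, 1323, 733 and 558 CPM in knockout 1, 2, 3 and 4. Hearts numbered 2 were the highest of their group, at 3.11 times the next wild-type and 1.81 times the next knockout heart, and the groups overlapped. The means were 869 ± 804 and 753 ± 404 CPM (SD, n = 4 each). Knockout over wild-type, this was -0.21 on the log2 scale (standard error 0.63, 95% interval -1.63 to 1.22; edgeR adjusted p = 0.99998). The log2 fold change was 0.67 without wild-type 2 and -0.63 without knockout 2. On the TPM scale wild-type 6 had the least Nppb of all hearts (795 TPM) although it had the second highest CPM of the wild type. The 2 scales stand differently in this library. The median log2 of TPM + 1 over CPM + 1 was -1.77 in wild-type 6 and -0.995 to -0.738 elsewhere.

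The 2 peptides did not keep one proportion. Nppa per Nppb, a ratio of TPM values, was 1.07, 0.479, 0.248 and 3.53 in wild-type 2, 4, 5 and 6. Among the Gpihbp1-/- hearts 1 to 4 it was 0.281, 2.37, 0.283 and 0.312. Nppb therefore exceeded Nppa in 5 hearts, and Nppa exceeded Nppb in wild-type 2, wild-type 6 and knockout 2.

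Genes that process, receive and relay the peptides were compared with them. Corin, the cardiomyocyte protease that cleaves the Nppa precursor, was at 63.1, 86.8, 203 and 88.7 CPM in wild-type 2, 4, 5 and 6. Among the Gpihbp1-/- hearts 1 to 4 it was at 131, 101, 215 and 201 CPM. Its log2 fold change was 0.55 (standard error 0.41; edgeR adjusted p = 0.99998). Corin was thus lowest, within each genotype, in the heart numbered 2, where Nppb was highest. Of all tested genes, 20.5% were lowest in both of these hearts. Furin, a convertase that can process the Nppb precursor, had a log2 fold change of 0.48 (standard error 0.35), and Pcsk6, the convertase that activates Corin, had 0.061 (standard error 0.42). Pcsk6 was at 31.2 CPM in knockout 2 against 102 to 107 CPM in the other knockout hearts. Pde9a, a cyclic GMP phosphodiesterase, had -0.29 (standard error 0.36).

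The receptors showed no genotype difference past the test. Npr1, the guanylyl cyclase receptor of both peptides, had a log2 fold change of -0.078 (standard error 0.49). Npr2, the receptor for the C-type peptide, had -0.073 (standard error 0.34). The clearance receptor Npr3 had -0.12 (standard error 0.47). Each of these 3 receptors was lowest in the heart numbered 2 within both genotypes, a placing that 20.5% of all tested genes shared. The C-type peptide gene Nppc had 1 read, in wild-type 4, and was not tested. Of the 14 genes listed for peptide processing, receptors and signalling, 11 were tested, 0 passed in either direction and the median log2 fold change was -0.064, against -0.019 over all tested genes. Of the 11, 5 were lowest in both hearts numbered 2 (Corin, Npr1, Npr2, Npr3 and Pde2a). Prkg1 was highest in both, as were 25.1% of all tested genes.

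Ankrd1 encodes a muscle ankyrin repeat protein that binds titin in the I-band and also acts in the nucleus. Its level was 3922, 472, 808 and 999 CPM in wild-type 2, 4, 5 and 6. In knockout 1, 2, 3 and 4 it was 712, 2930, 1141 and 1592 CPM. The heart numbered 2 was again the highest of each group, by 3.93 times over the next wild-type heart and 1.84 times over the next knockout heart. The means were 1550 ± 1596 and 1594 ± 960 CPM (SD, n = 4 each), and the log2 fold change was 0.040 (standard error 0.71, 95% interval -1.55 to 1.63; edgeR adjusted p = 0.99998). The sign turned with 1 heart: the log2 fold change was 1.07 without wild-type 2 and -0.43 without knockout 2, and negative also without wild-type 4, 5 or 6. Of a list of 10 genes (Ankrd1 itself, its family, titin, myopalladin, desmin and Z-disc partners), 8 were tested, Ankrd1 among them, 0 passed and the median log2 fold change was 0.034. The Z-disc gene Myoz2 had -0.35 (standard error 0.54), the actin-binding gene Palld 0.20 (standard error 0.36) and Casq2, the calcium-storing protein of the sarcoplasmic reticulum, 0.11 (standard error 0.42).

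Its family member Ankrd23, expressed in the heart, followed the same hearts in a smaller range, at 388 to 1017 CPM in the wild type and 388 to 837 CPM in the knockout, highest in the hearts numbered 2. Ankrd2, the other family member listed, was scarce and not tested. It was at 6.06 and 6.69 CPM in wild-type 2 and knockout 2 and at 0.177 to 0.524 CPM elsewhere. Desmin (Des), the intermediate filament protein of muscle, had a log2 fold change of -0.0079 (standard error 0.51). Titin (Ttn) went the other way, lowest in both hearts numbered 2, at 1894 and 2008 CPM against 2503 to 4478 CPM elsewhere. Ankrd2, Ankrd23, Des and Ttn were picked out after their values were seen.

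Acta1, the skeletal muscle actin that the fetal heart also uses, was 1402, 250.2, 355 and 561 CPM in wild-type 2, 4, 5 and 6. It was 265, 2205, 341 and 690 CPM in knockout 1, 2, 3 and 4. The heart numbered 2 was the highest in each group, at 2.50 and 3.20 times the next heart, and the groups overlapped. The means were 642 ± 523 and 875 ± 906 CPM (SD, n = 4 each), and the log2 fold change was 0.45 (standard error 0.77, 95% interval -1.27 to 2.17; edgeR adjusted p = 0.99998). It was 1.17 without wild-type 2 and -0.57 without knockout 2.

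Set against its adult partner, Acta1 was the minor actin in every heart. Its share of Acta1 plus Actc1, from TPM values, was 9.08, 2.93, 2.02 and 3.48% in wild-type 2, 4, 5 and 6. In knockout 1, 2, 3 and 4 it was 2.64, 13.2, 1.68 and 3.796%. The means were 4.38 ± 3.19% and 5.33 ± 5.32% (SD, n = 4 each), a difference of 0.954 percentage points that was smaller than the spread between hearts (exact two-sided permutation p = 0.771, also 0.771 after adjustment over 2 shares). Actc1 itself varied much less than Acta1, from 8150 to 16932 CPM in the wild type and 9608 to 19646 CPM in the knockout, and was not highest in either heart numbered 2. Of the 6 actin genes, all tested and Acta1 among them, 0 passed, and the median log2 fold change was -0.016. The non-muscle actins Actg1 and Actb had log2 fold changes of -0.43 (standard error 0.47) and -0.28 (standard error 0.62).

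Skeletal muscle carried along with a heart would also bring Acta1. The skeletal list of 12 genes summed to 19.0 to 56.1 CPM in the wild type and 16.4 to 95.03 CPM in the knockout, and most of that was Mybpc2. Its defining genes Myh1, Myh2, Myh4, Myod1 and Myog were each below 0.3 CPM in every heart. Knockout 2 had the highest Mybpc2, at 84.2 CPM, and Tnnt3, at 7.94 CPM. These were the only 2 of the 12 with their highest value there. Mylpf, Tnni2, Pvalb, Atp2a1 and Actn3 were at most 5.06 CPM in any heart. The part of skeletal muscle in the Acta1 level was not tested.

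**Figure D2:**
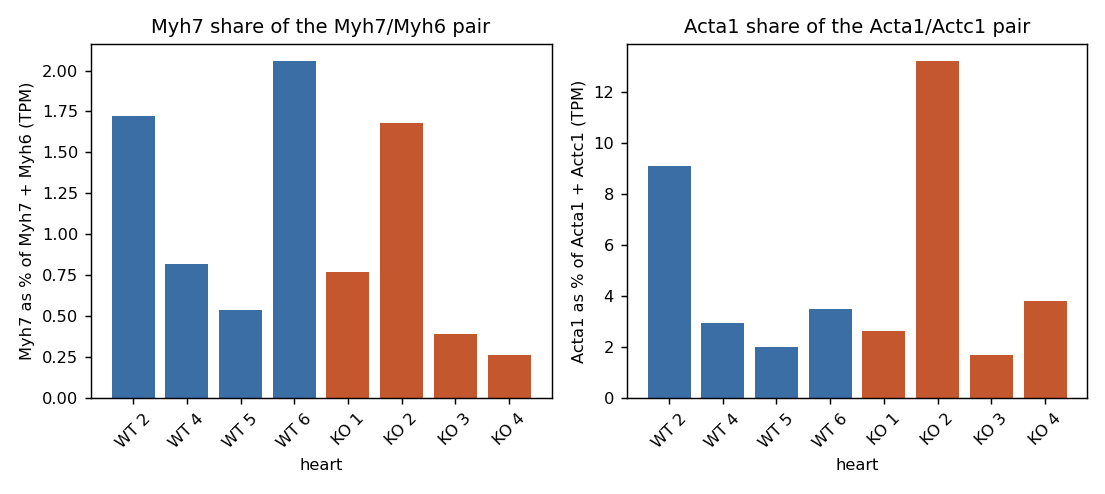
Share of the fetal isoform in each heart, in percent of the pair's summed TPM (bars, from 0): Myh7 of Myh7 plus Myh6 on the left, Acta1 of Acta1 plus Actc1 on the right, with wild-type hearts in blue and knockout hearts in orange. Wild-type 2 and knockout 2 are high in both pairs, and wild-type 6 in the myosin pair, where it reaches 2.06%.

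Myh6 ranked between 10th and 141st by TPM among the genes of a heart, and it was lowest where Nppb, Ankrd1 and Acta1 were highest. It was 6904, 16257, 33826 and 19089 CPM in wild-type 2, 4, 5 and 6. It was 20527, 8808, 29482 and 28290 CPM in knockout 1, 2, 3 and 4. The heart numbered 2 had the lowest value of each genotype, and the next lowest heart was 2.35 times higher in the wild type and 2.33 times higher in the knockout. The means were 19019 ± 11160 and 21777 ± 9514 CPM (SD, n = 4 each). The log2 fold change was 0.20 (standard error 0.60, 95% interval -1.16 to 1.55; edgeR adjusted p = 0.99998), and it was -0.082 without wild-type 2.

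With TMM scaling Myh7 had the largest genotype difference of the 6 and still did not pass. It was 121, 135, 182 and 402 CPM in wild-type 2, 4, 5 and 6. In knockout 1, 2, 3 and 4 it was 160, 151, 116 and 74.9 CPM. In CPM wild-type 6 stood highest and knockout 4 lowest, while wild-type 2 had the lowest Myh7 of the wild type and knockout 2 the second highest of the knockout. By TPM wild-type 5 was the highest heart, at 45.4, and wild-type 6 had 37.4. The means were 210.1 ± 131 and 125 ± 38.5 CPM (SD, n = 4 each), and the log2 fold change was -0.74 (standard error 0.43, 95% interval -1.71 to 0.22; unadjusted p = 0.116; edgeR adjusted p = 0.99998). Leaving out wild-type 6 gave -0.24, and the value was negative in all 18 alternative fits. It was -0.47 with total-count scaling, where Acta1 had 0.60. On log2(TPM + 1) it was -0.29, the smallest of the 6 in size, or -0.54 relative to the median of all genes. Myh7 was the member closest to ordinary in its scatter: 73.2% of tested genes varied less within genotypes, against 86.8% to 99.7% for the other members.

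The myosin switch was read from the share of Myh7 in the pair. Myh7 made up 1.72, 0.820, 0.537 and 2.06% of Myh7 plus Myh6 by TPM in wild-type 2, 4, 5 and 6. It made up 0.771, 1.68, 0.392 and 0.264% in knockout 1, 2, 3 and 4. The means were 1.28 ± 0.723% and 0.777 ± 0.640% (SD, n = 4 each), a difference of -0.508 percentage points (exact two-sided permutation p = 0.229, adjusted 0.457 over 2 shares). The share was highest in the 3 hearts with the lowest Myh6 by TPM: 1389 in wild-type 2, 1779 in wild-type 6 and 2243 in knockout 2, against 3704 to 8406 TPM in the other 5. Myh7 in these 3 hearts was 24.4, 37.4 and 38.4 TPM, within the 16.9 to 45.4 TPM of the others. In CPM wild-type 6 differed from this, with Myh6 in the middle of its group and the highest Myh7, but the share does not depend on how libraries are scaled.

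Reads that Myh6 and Myh7 share in sequence can be divided between them by the estimate of counts, so a small Myh7 value beside a large Myh6 value is uncertain to that extent. Of 14 myosin heavy chain genes listed, 7 were tested, Myh6 and Myh7 among them, and 0 passed. The other 5 were Myh7b, Myh9, Myh10, Myh11 and Myh14. Myh9, a non-muscle myosin, had a log2 fold change of 0.36 (standard error 0.44), and Myh11, the smooth muscle myosin, had 0.22 (standard error 0.54).

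**Figure D3:**
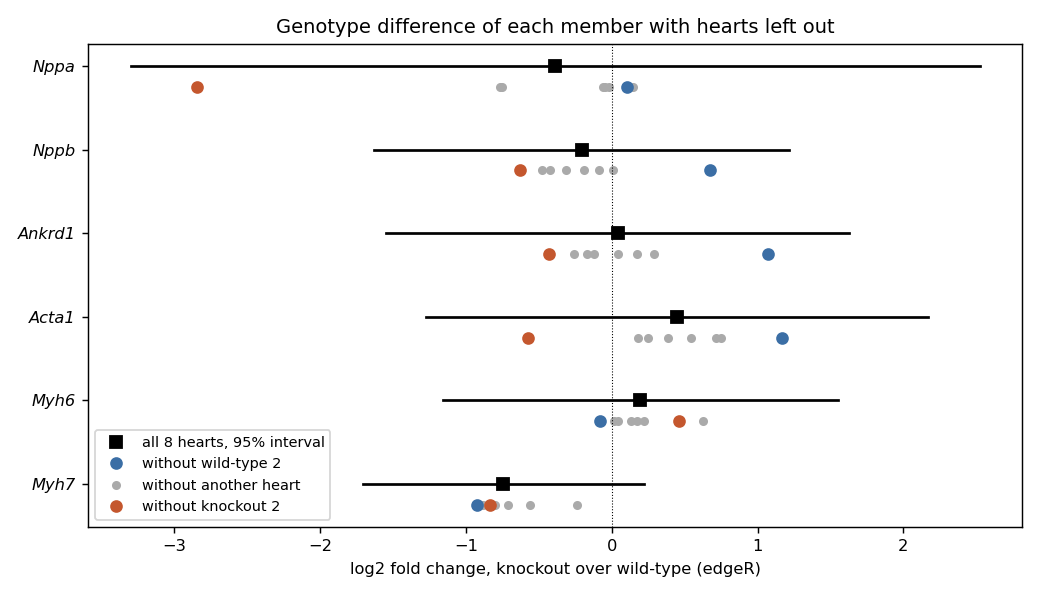
Log2 fold change, knockout over wild-type, of each member with all 8 hearts (squares, with 95% intervals from the edgeR fit) and in the 8 fits that each left out 1 heart (circles; blue without wild-type 2, orange without knockout 2, grey without another). All 6 intervals span 0, and leaving out wild-type 2 or knockout 2 moves Nppb, Ankrd1 and Acta1 to opposite sides of 0.

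The members were set beside a list of 16 other genes that stressed cardiomyocytes raise. Between genotypes 0 of 16 passed, 8 had positive and 8 negative log2 fold changes, and the median was 0.025. Across hearts they resembled Nppb, Ankrd1 and Acta1: 14 of 16 had the highest wild-type value in wild-type 2 and the highest knockout value in knockout 2, a placing that 25.1% of all tested genes shared. Among the members 3 of 6 had it. Gdf15, a stress cytokine, was at 49.7 and 45.3 CPM in wild-type 2 and knockout 2 and at 2.15 to 3.49 CPM elsewhere. Fhl1, a LIM protein that binds titin, was at 573 and 588 CPM in these hearts and at 91.0 to 142 CPM elsewhere. Rcan1, a target and inhibitor of calcineurin, was at 457 and 318 CPM there and at 64.7 to 164 CPM elsewhere. These 3 genes were picked out after their values were seen. The smallest p of the list belonged to Nmrk2, a nicotinamide riboside kinase, whose log2 fold change was -0.97 (standard error 1.02, edgeR adjusted p = 0.99998). It was followed by the Z-disc gene Csrp3 at -0.39 (standard error 0.44) and the matricellular gene Ccn1 at 0.32 (standard error 0.37).

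Adult contractile and calcium-handling partners went the other way in the same hearts. Of 14 such genes, all tested, 0 passed between genotypes and the median log2 fold change was -0.076. The smallest p belonged to Tnnc1, cardiac troponin C (log2 fold change -0.52, standard error 0.52), Myl2, the ventricular regulatory light chain (-0.66, standard error 0.69), and Tnni3, cardiac troponin I (-0.50, standard error 0.60). For 8 of the 14, including Myl2, Myl3, Tnni3, Pln and Atp2a2, the lowest value of each genotype was in the heart numbered 2, as it was for 20.5% of all tested genes, and for 0 of 14 the highest. Atp2a2, the calcium pump of the sarcoplasmic reticulum, was at 4014 and 4896 CPM in wild-type 2 and knockout 2 and at 6266 to 18430 CPM elsewhere. Myl2 was at 4582 and 2915 CPM there and at 7595 to 31090 CPM elsewhere. Atp2a2 was chosen with its values known.

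**Figure D4:**
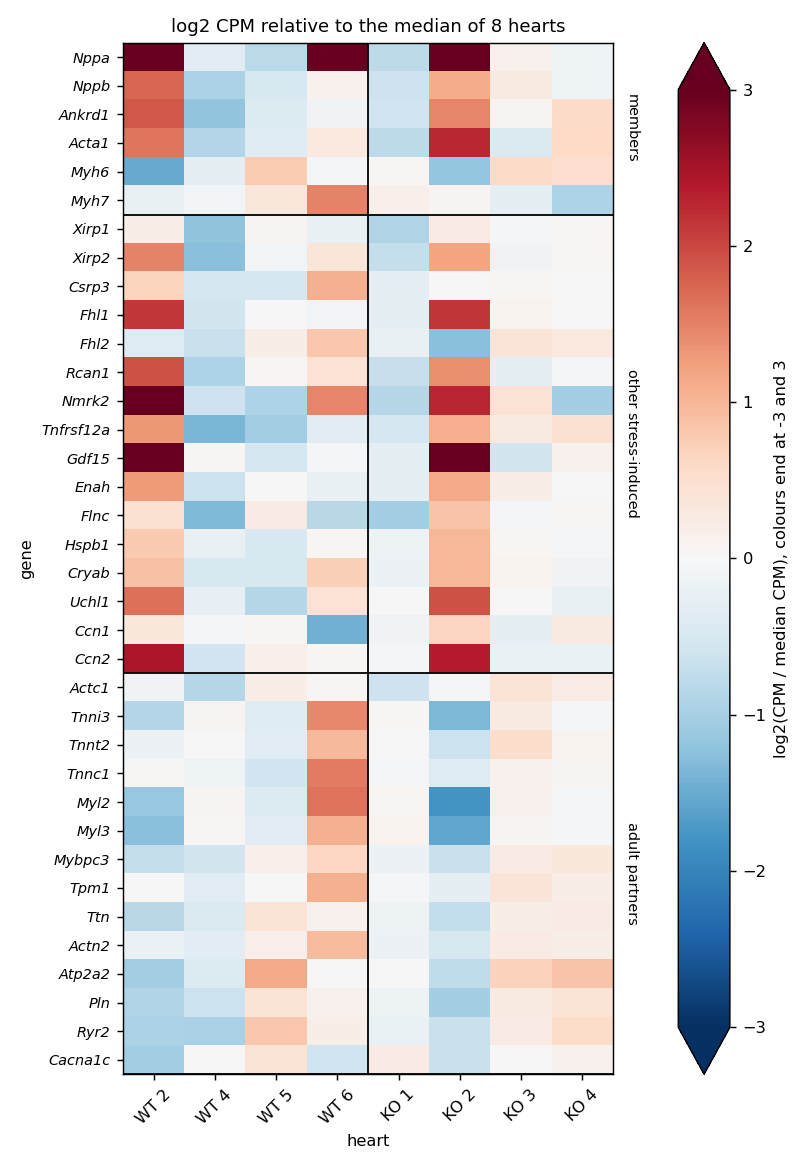
Heat map of log2(CPM divided by the gene's median over the 8 hearts) for the 6 members, the 16 other stress-induced genes and the 14 adult partner genes (rows), by heart (columns, WT wild-type and KO knockout); colours end at -3 and 3. The columns WT 2 and KO 2 are red for most stress-induced genes and blue for Myh6 and most adult partners, whichever genotype they belong to.

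Markers of other cells moved with these 2 hearts. The 9 fibroblast markers summed to 9487 CPM in wild-type 2 and 11320 CPM in knockout 2, and to 1075 to 1310 CPM in the other 6 hearts. Col3a1, the fibrillar collagen gene that led this list, was at 3607 and 4384 CPM in these hearts and at 109 to 203 CPM elsewhere. Most of the sum in these hearts came from Col1a1, Col1a2, Col3a1 and Postn. Decorin (Dcn) was the lowest of the knockout in knockout 2, at 536 against 551 to 619 CPM, and Dpt, at 122 against 116 to 117 CPM, and Tcf21, at 12.5 against 9.42 to 11.8 CPM, were close to the other knockout hearts. In wild-type 2 all 9 markers were the highest of the wild type. The 8 macrophage markers summed to 4040 and 2693 CPM there and to 399 to 705 CPM elsewhere, led by the lysozyme gene Lyz2 at 1809 and 1117 CPM there and 174 to 296 CPM elsewhere. The 8 endothelial markers went the other way, at 617 and 717 CPM there and 1102 to 2468 CPM elsewhere. Over all hearts the fibroblast sum ran from 1086 to 9487 CPM in the wild type and from 1075 to 11320 CPM in the knockout, and no marker of either list was at 0 in all hearts. The 8 cardiomyocyte markers of any chamber summed to 32080 and 30090 CPM in the 2 hearts, within or just below the 31200 to 64220 CPM of the others. Actc1 led these 2 sums, at 13810 and 14250 CPM against 8150 to 19650 CPM elsewhere. Tnni3, Mybpc3, Ttn and Pln were lowest in the heart numbered 2 of each genotype, as were 20.5% of all tested genes. Tnnt2, Actn2, Ryr2 and Actc1 did not have this placing. In tissue RNA fewer cells of a type and less RNA per cell cannot be told apart, and the part of these markers in the members' levels was not tested.

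A fit that left out the hearts numbered 2 kept 6 hearts. In it 3 wild-type and 3 knockout hearts were compared and 0 of 6 members passed. The log2 fold changes in this fit were -2.36 for Nppa, 0.25 for Nppb, 0.60 for Ankrd1, 0.15 for Acta1, 0.18 for Myh6 and -1.02 for Myh7. The Nppa and Myh7 values then rested on wild-type 6: with it left out as well, leaving 2 wild-type and 3 knockout hearts, they were 0.34 and -0.44, and again 0 of 6 passed.

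Other fetal isoforms and the upstream regulators gave the same picture between genotypes. Of 12 other fetal isoform genes, 10 were tested and 0 passed, with a median of -0.17. Myl4 had the smallest p of this list (log2 fold change -6.86, standard error 2.22, unadjusted p = 0.0124, edgeR adjusted p = 0.99998), and its reads came almost wholly from wild-type 6. Ckb, brain creatine kinase, had -0.55 (standard error 0.34), and the T-type calcium channel gene Cacna1h had -1.04 (standard error 0.68). Of 25 transcription factors and cofactors that act on these promoters, 0 passed, 13 were positive and 12 negative, and the median was 0.0027. The cardiac factor Tbx5 had a log2 fold change of 0.49 (standard error 0.49), the histone deacetylase Hdac9 0.37 (standard error 0.36) and the serum response cofactor Mrtfa -0.29 (standard error 0.31).

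Of the TEAD, GATA and serum response factors, whose letters were searched in the promoters, 5 were in this list. Gata4 ran from 93.0 to 173 CPM in the wild type and from 101 to 182 CPM in the knockout. Gata6 ran from 24.9 to 58.4 and from 33.4 to 63.3 CPM. Tead1 ran from 47.8 to 187 and from 102 to 148 CPM, and Srf from 90.7 to 207 and from 113 to 172 CPM. Tead4, the least abundant, ran from 0.422 to 5.24 CPM in the wild type, lowest in wild-type 6, and from 1.66 to 3.20 CPM in the knockout. These 5 were chosen for the motifs, after their values were seen, and 0 of 5 passed the test.

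Genes whose log2 CPM pattern over the 8 hearts was most like each member's were sought among 9246 other genes with a mean of at least 10 CPM. The likeness is Pearson's r, given as a description: the 8 points share their libraries, and wild-type 2 and knockout 2 lie apart from the rest, so r over the other 6 hearts is given beside it. For Nppa and Myh7 the value over 6 hearts is no check, since wild-type 6 lies far above the other 5 in both genes (Nppa 3262 against 157 to 298 CPM, Myh7 402 against 74.9 to 182 CPM). For Nppa the nearest were Slc35b2 (0.991 over 8 hearts, 0.996 over 6), Ap2m1 (0.990 and 0.994) and Gmppb (0.989 and 0.986). For Nppb they were Zmpste24 (0.986 and 0.989), Smim3 (0.978 and 0.930) and Fbxo4 (0.978 and 0.912). Ankrd1 was nearest to Rhoa (0.980 and 0.958), Ddah1 (0.978 and 0.912) and Cebpb (0.973 and 0.952). Acta1 was nearest to Slc66a1 (0.985 and 0.949), Mfsd12 (0.974 and 0.852) and Hgsnat (0.969 and 0.915).

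Likeness of pattern did not mean likeness of range. Ap2m1, a clathrin adaptor subunit, ran only from 214 to 442 CPM over the hearts in which Nppa ran from 157 to 4467 CPM. Rhoa, a small GTPase, ran from 276 to 422 CPM while Ankrd1 ran from 472 to 3922 CPM. Myh6 was nearest to Aldh2, mitochondrial aldehyde dehydrogenase (0.997 and 0.985), Nipal3 (0.993 and 0.968) and the cardiac kinase gene Mylk4 (0.992 and 0.961). Mylk4 had a wide range of its own, with 12.9 and 17.9 CPM in wild-type 2 and knockout 2 and 70.6 to 261 CPM elsewhere. Myh7 was nearest to Ccar2 (0.965 and 0.983), Ddx23 (0.925 and 0.939) and Pigq (0.920 and 0.931).

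Among the members themselves, r was highest between Nppb and Ankrd1, at 0.955 over 8 hearts and 0.810 over the 6 without wild-type 2 and knockout 2. Acta1 and Ankrd1 had 0.930 and 0.842. Nppa and Nppb had 0.811 and 0.558. Myh6 had negative values with each of Nppa, Nppb, Acta1 and Ankrd1 over 8 hearts, from -0.766 to -0.660, but over the 6 hearts it had 0.612 with Ankrd1, 0.436 with Nppb and 0.310 with Acta1, so these 3 signs rested on the hearts numbered 2. With Nppa it remained negative, at -0.344. Myh7 had r between -0.256 and 0.377 with the other members over 8 hearts. Over 6 hearts its r with Nppa was 0.728, where wild-type 6 was the highest heart in both genes.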

How the data were processed

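Hearts of 4 wild-type and 4 Gpihbp1-/- male mice gave 1 RNA-seq library each. The libraries were stranded, from poly(A) RNA, and read in pairs on a DNBSEQ instrument, per the labels' protocols, of which 1 paragraph names rat tissue while the organism is given as mouse. HISAT, Bowtie2 and build GRCm39 are named in the submitters' processing notes; no source used here names the counting program. Per the file headers, the deposited table holds read counts (expected counts, 4.32% to 5.89% of them not whole), TPM and FPKM per library; 8 empty per-sample columns were not used.

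Counts were rounded and filtered with edgeR's filterByExpr (minimum count 10, total 15), which left 12826 genes. The genotypes were compared with edgeR 4.0.16 (R 4.3.3; TMM, robust quasi-likelihood F-test, no covariates), and p-values were adjusted over all tested genes by Benjamini-Hochberg (threshold 0.05). Standard errors are the log2 fold change over the root of F, and 95% intervals follow from them. The fit was also run on simulated counts in which each gene varied independently, unlike in these hearts, and no result here rests on that run. Isoform shares used exact permutation over 70 arrangements (smallest possible two-sided p, 0.0286). DESeq2 1.42.0, limma 3.58.1 on log2(TPM + 1), other scalings and filters, and fits without hearts were alternatives. Log2 CPM used a prior count of 2. No 2 libraries agreed within sampling noise.

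The members and the 8 gene and 11 marker lists were chosen with earlier results of these data known. Genes named were the members, Gpihbp1, Actc1, up to 3 genes of smallest p per list, the peptide receptors and convertases, leading markers, and the 3 genes most like each member; others are said to be picked later. Motifs were searched in RefSeq promoter windows of GRCm38.p6, another build than the authors'; no coordinates were taken from the table.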

Additional observations from a re-analysis of the deposited data

Results flagged for a closer look

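Of 46 groups of 4 hearts, 12 had a single heart far from the other 3 by Dixon's criterion at the 95% level, and 2 of the 12 member groups were among them. The quantities looked at were chosen with earlier results known, and several share genes, so the number that chance would give cannot be stated. Knockout 2 stood apart in Nppa at 4467 CPM and in Nppa per Nppb at 2.37, and wild-type 2 in Ankrd1 at 3922 CPM. Wild-type 2 and knockout 2 stood apart in summed fibroblast markers, at 9487 and 11320 CPM, and in summed macrophage markers, at 4040 and 2693 CPM. Knockout 2 was also far below its group in Pcsk6, at 31.2 CPM. Wild-type 6 stood apart in summed atrial markers at 2124 CPM, in Myl4 at 974 CPM and in summed erythroid and platelet markers at 9320 CPM. Knockout 3 did so in Myl4 at 2.45 CPM, within a narrow range.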

How the results depend on the processing

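In all 18 alternatives 0 of 6 members passed. Log2 fold changes over the fits that left out 1 heart ran from -2.84 to 0.15 for Nppa, -0.63 to 0.67 for Nppb, -0.082 to 0.63 for Myh6, -0.93 to -0.24 for Myh7, -0.57 to 1.17 for Acta1 and -0.43 to 1.07 for Ankrd1. The Acta1 share difference ran from -1.67 to 2.52 points and the Myh7 share difference from -0.809 to -0.250 points, and neither passed. Without wild-type 2 and knockout 2, Nppb reversed to 0.25 and the Acta1 share difference to -0.103 points. Without wild-type 6 and knockout 2, Acta1 was -0.64 and Ankrd1 -0.60. Without wild-type 2, wild-type 6 and knockout 2, Nppa was 0.34 and Nppb 0.57. On log2(TPM + 1), where the median of all genes shifted by 0.28, Nppb was 0.39, or 0.14 relative to that median. The cause was not tested.

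Over all genes, 4 passed in edgeR, 8 in DESeq2, 2 without wild-type 6 and knockout 2, and 2 to 3 with 1 heart left out (2 without wild-type 4 or 5). Titles share heart numbers 2 and 4 between groups, but nothing says that they mark pairs: deviations of same-numbered hearts correlated at 0.908 and 0.110 across genes. With heart number as a replicate block, hearts whose number occurs in 1 genotype only do not inform the genotype difference. That fit therefore compared wild-type 2 and 4 with knockout 2 and 4, with almost nothing left to estimate scatter from. In it 168 genes passed, 0 of them members. Nppa was 0.36, Nppb 0.087 and Acta1 1.06 (unadjusted p = 0.00661, edgeR adjusted p = 0.191). In each of 2 lists 1 gene passed, Hcn4 among other fetal isoforms and Tbx5 among transcription factors.

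With 4 hearts a group and this spread, differences inside the printed intervals cannot be resolved.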
